A study of Mus musculus with 6 samples.

Results

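The calcium/calmodulin-dependent kinases were followed through 10 genes, picked by symbol out of 55421 genes in each table. They were Camk2a, Camk2b, Camk2d and Camk2g, which encode the 4 subunits of CaMKII, together with Camk4, Camk1, Camk1d, Camk1g, Camkk1 and Camkk2. Each symbol stood on a single row, and all 10 genes passed the count minimum and averaged at least 10 CPM, that is, counts scaled to a common library size.

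These kinases turn a rise in intracellular calcium into protein phosphorylation, because calcium-loaded calmodulin binds them and relieves their autoinhibition. CaMKII subunits assemble into a large holoenzyme whose members phosphorylate one another on a threonine of the regulatory segment, which keeps the enzyme active after calcium falls, and the alpha and beta subunits are among the most abundant proteins of excitatory synapses in the forebrain. The other branch is a cascade, in which the CaMK kinases Camkk1 and Camkk2 phosphorylate the CaMKI family and CaMKIV, and CaMKIV acts in the nucleus on transcription factors such as CREB.

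RNA was measured in the microdissected cerebral cortex of wild-type male C57BL/6J mice on a standard diet, killed by cervical dislocation under isoflurane. The design set 3 mice of 24 months against 3 mice of 6 months, a comparison of old with young adults, and each library came from a separate mouse. The 6-month mice carried the numbers 10, 11 and 17 and the 24-month mice the numbers 2, 4 and 5. Libraries were made with a low-input kit, sequenced as single reads of 75 bases, and held 29495379 to 36494240 counts.

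The libraries differed by age in more than the kinases. A count was seen for 33974 to 35651 genes at 6 months and for 40208 to 43561 genes at 24 months, and the scaling factors of the trimmed mean of M-values (TMM) lay at 0.921 to 0.946 and at 1.04 to 1.10. On the first principal component, which held 53.2% of the variance, the 24-month mouse 5 (19.8) lay nearest to the young mice (-73.0 to -49.5), while mice 4 and 2 lay at 65.6 and 92.3. TMM scaling placed the median of the 10026 genes of at least 10 CPM at a log2 fold change of -0.20 (24 against 6 months), and scaling by library totals alone placed it at -0.01. The fold changes below are from TMM scaling and are to be read against that median.

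The 4 CaMKII genes are close paralogs, so that the sequence around the autophosphorylated threonine shows how far short reads could tell them apart. Reads were clipped by 3 bases at each end, which left up to 69 bases, and the 69-base windows centred on that codon are given for 3 of the genes, 5′ to 3′ on the coding strand, each within 1 exon (GRCm38). Capitals mark the 26 positions at which the 3 genes were not identical.
Camk2d (chr3:126797708-126797776, plus strand, threonine codon 287): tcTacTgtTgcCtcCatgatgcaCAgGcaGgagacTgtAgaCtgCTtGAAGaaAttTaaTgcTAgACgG
Camk2b (chr11:5988964-5989032, minus strand, threonine codon 287): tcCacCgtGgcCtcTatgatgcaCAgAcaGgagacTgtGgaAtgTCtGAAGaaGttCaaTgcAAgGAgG
Camk2g (chr14:20760406-20760474, minus strand, threonine codon 285 of the transcript used): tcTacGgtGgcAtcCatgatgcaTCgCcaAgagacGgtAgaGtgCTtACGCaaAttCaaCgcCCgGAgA
Even in this conserved segment Camk2b differed from Camk2d at 14 positions and Camk2g at 20, and the mapping allowed at most 5 mismatches.

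The search was extended to whole transcripts, including that of Camk2a, whose window is not shown. None of the 45 pairs of members shared an exact 69-base stretch in any annotated transcript. Along the longest coding transcripts of the 4 CaMKII genes, 0 of 5456 windows of Camk2d and 0 of 3635 of Camk2g came within 5 mismatches of a paralog, against 3 of 4902 for Camk2a and 3 of 3955 for Camk2b. Reads were counted without regard to strand, so that transcripts antisense to a kinase could not be told apart from it.

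Levels were compared between genes as deposited TPM, transcript abundances divided by gene length and set to the same sum in every library. Camk2a was the highest of the 10 at 1032 TPM over the 6 mice, the 81st gene of the whole table. Camkk1 (248 TPM) and Camk2b (240 TPM) followed, and their ranges over mice, 228 to 261 and 212 to 285 TPM, overlapped. Camk2g (160 TPM), Camkk2 (146 TPM) and Camk1 (125 TPM) formed a middle group with overlapping ranges, and Camk1g (95.0 TPM), Camk4 (80.0 TPM) and Camk1d (74.6 TPM) a lower one whose ranges also overlapped. The ranges of Camk1 and Camk1g, on either side of that division, overlapped too, at 98.1 to 139 and 65.0 to 107.5 TPM.

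Camk2d stood last, at 26.9 TPM with a range of 24.5 to 29.2 TPM, below every mouse's value for every other member. That place depended on the length used. The deposited TPM of Camk2d was divided by 22493 exonic bases, the union of all its annotated exons, which is 4.07 times its longest coding transcript of 5524 bases, and for Camk1 the same ratio was 3.99. Per kilobase of the longest coding transcript, Camk2d reached 29.9 CPM over the 6 mice and stood 7th, next to Camk1g (29.1), Camk4 (26.4) and Camk1d (21.8). The ranges of Camk2d (26.2 to 32.6), Camk1g (19.1 to 33.9) and Camk4 (14.2 to 35.7) overlapped, and by age Camk2d stood 9th at 6 months (31.8, next to 33.0 for Camk1g and 32.5 for Camk4) and 7th at 24 months (28.1, next to 25.2 and 20.4). On this scale Camk1 moved from 6th to the 3rd place and Camkk1 from 2nd to 6th. Camk2a stayed first on either scale, and the per-transcript order was computed after the deposited values had been seen.

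**Figure D1:**
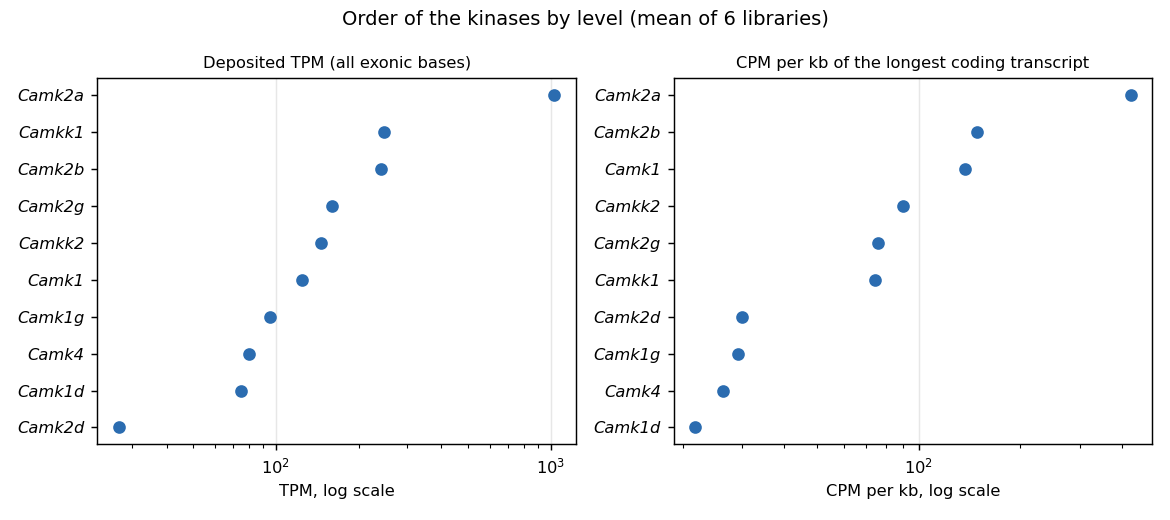
Mean level of the 10 kinases over 6 libraries, on a log axis, as deposited TPM (left) and as CPM per kilobase of the longest coding transcript (right), each panel sorted by its own order. Camk2d is last at 26.9 TPM on the left and 7th at 29.9 CPM per kb on the right, where Camk1g and Camk4 lie close to it, while Camk2a is first on both.

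All 10 kinases had a lower fitted level at 24 than at 6 months, with the largest difference over the 6 mice in Camk4. Its log2 fold change was -0.67, while the other 9 lay between -0.18 (Camk2d) and -0.39 (Camk1g). That order rested on 1 library: without the 24-month mouse 2, Camk4 was at -0.46, Camk1g at -0.51 and Camk1 at -0.48. In edgeR's quasi-likelihood test with Benjamini-Hochberg adjustment, 0 of the 10 passed the study's threshold of 1% FDR, as did 0.0% of the 32905 genes tested. The likelihood ratio test and DESeq2 called none of the 10 at that threshold either, where they called 5.18% and 0.69% of all genes tested. At 10% FDR 3 of 10 were lower (Camk2a, Camk4 and Camkk2), against 8.33% of all genes tested and 25.4% of genes of at least 10 CPM. An unadjusted p under 0.05 was met by 8 of 10, all lower, against 13.1% of all genes and 38.5% of genes of at least 10 CPM. The members' median log2 fold change was -0.28, next to -0.20 for the genes of at least 10 CPM and 0.15 for all genes tested.

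Under scaling by library totals alone the members' median was -0.09. Then 9 of 10 were still lower, 1 of 10 (Camk4) was lower with an unadjusted p under 0.05, against 2.87% of all genes tested, and none passed 10% FDR, against 0.982% of all genes lower. Camk2d went to 0.02, whereas Camk4 remained at -0.49 (edgeR adjusted p = 0.152). Set against the median of the genes of at least 10 CPM, Camk4 was lower by a log2 difference of -0.47, followed by Camk1g (-0.19), Camkk2 (-0.14) and Camk1 (-0.13), and the remaining 6 lay between -0.07 and 0.03.

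**Figure D2:**
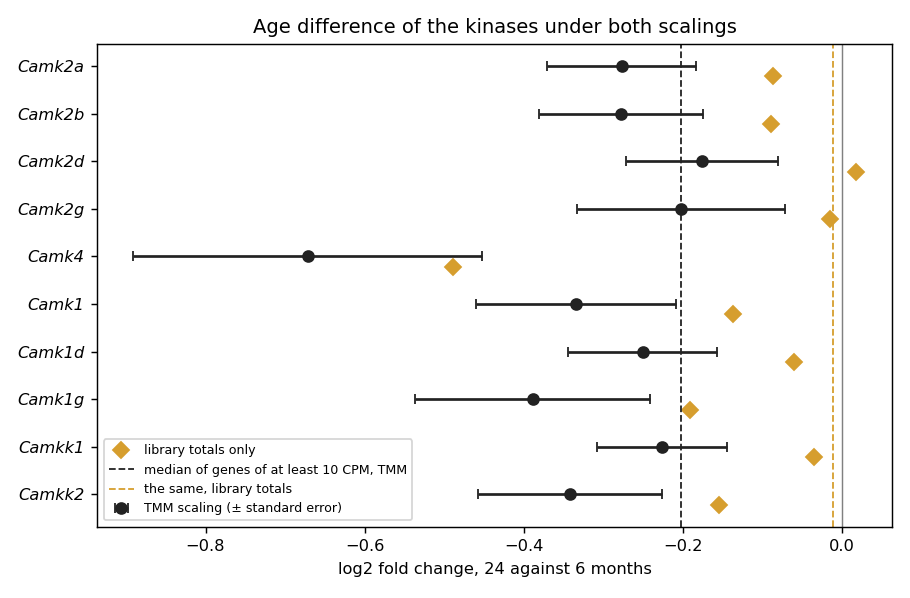
Log2 fold change of each kinase at 24 against 6 months with TMM scaling (black, ± standard error) and with library totals only (orange), with dashed lines at the median of genes of at least 10 CPM under each scaling. Camk4 lies far left of either median, at -0.67 and -0.49, and Camk2d lies at -0.18 and 0.02, close to both medians.

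Camk2a (ENSMUSG00000024617.16, GRCm38 chromosome 18, 60925618 to 60988152) encodes the alpha subunit, the main CaMKII form of forebrain excitatory neurons. It measured 2234, 2250.1 and 2456 CPM in the 6-month mice 10, 11 and 17 and 1888, 1753 and 2086 CPM in the 24-month mice 2, 4 and 5. In CPM every old mouse was below every young mouse, with group means of 2313 ± 124 and 1909 ± 167 CPM (SD, n = 3). In deposited TPM the groups overlapped, with the old mouse 5 at 1063 above the young mouse 10 at 1046. The log2 fold change was -0.28 (SE 0.09, edgeR adjusted p = 0.0906), and it was -0.09 with library totals.

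Camk2b (chromosome 11, 5969644 to 6066362) encodes the beta subunit, which also binds actin filaments. It measured 598, 735 and 643 CPM in the young and 507, 533 and 589 CPM in the old mice. The groups did not overlap, but the lowest young mouse and the highest old mouse were close. The log2 fold change was -0.28 (SE 0.10, edgeR adjusted p = 0.111), and it ranged from -0.34 to -0.15 as single mice were left out.

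Camk2g (chromosome 14, 20734875 to 20794088), the gamma subunit, is expressed in many tissues. Its values were 321, 299 and 281 CPM at 6 months and 211, 266 and 305 CPM at 24 months. The old mouse 5 lay above 2 of the young mice and the old mouse 2 below all of them, so that the groups overlapped. The log2 fold change was -0.20 (SE 0.13) with an edgeR adjusted p of 0.311.

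Camk2d (ENSMUSG00000053819.16, chromosome 3, 126596302 to 126846326) encodes the delta subunit, best known as the main CaMKII form of heart muscle. It measured 170.0, 176 and 180.1 CPM in the young mice 10, 11 and 17, and 172, 149 and 145 CPM in the old mice 2, 4 and 5. Mice 4 and 5 lay below all young mice and mouse 2 within their range. The log2 fold change of -0.18 (SE 0.10) had an edgeR adjusted p of 0.232, and it ranged from -0.25 to -0.10 as single mice were left out. The adjusted p was 0.384 by edgeR's likelihood ratio test and 0.411 by DESeq2.

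**Figure D3:**
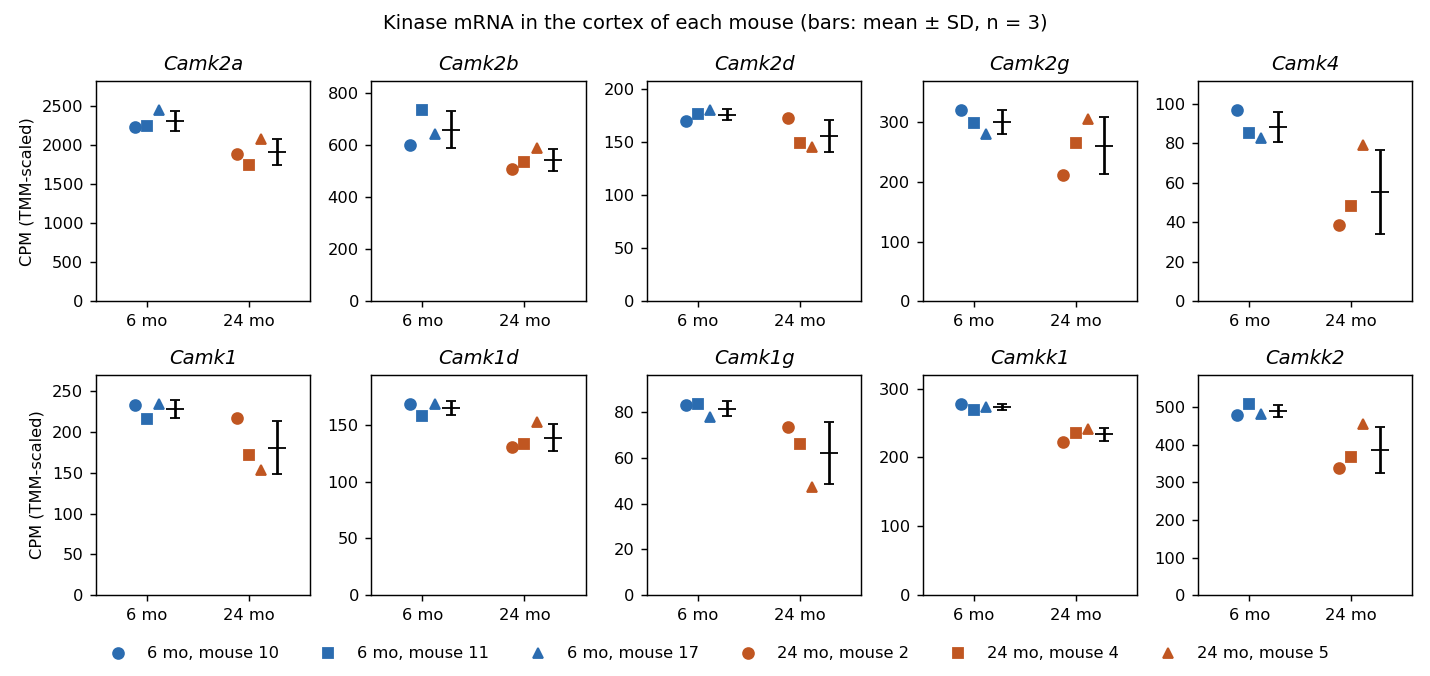
CPM with TMM scaling of the 10 kinases in each mouse (symbols) with the mean ± SD of 3 mice per age (bars), each panel on its own axis from 0. For Camk4 the old mice lie at 38.7, 48.3 and 79.2 CPM below young mice at 82.6 to 97.1 CPM, and for Camk2d the old mouse 2 lies among the young.

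The ratio of Camk2d to a paralog within a library does not depend on how libraries are scaled. The log2 ratio of Camk2d to Camk2a counts was -3.72, -3.67 and -3.77 in the young and -3.45, -3.56 and -3.85 in the old mice. The old mice 2 and 4 lay above the young range and mouse 5 below it, and the mean rose from -3.72 ± 0.05 to -3.62 ± 0.20 (SD, n = 3), by less than the spread of the old mice. The difference of 0.10 (SE 0.12) had p = 0.5 in an exact two-sided permutation test, 0.9 after adjustment over the 3 ratios, in a design whose smallest possible p is 0.1.

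Against Camk2b the log2 ratio was -1.81, -2.06 and -1.84 in the young and -1.56, -1.84 and -2.02 in the old mice, a difference of 0.10 (SE 0.16, exact permutation p = 0.6). Against Camk2g it was -0.92, -0.76 and -0.64 in the young and -0.29, -0.84 and -1.08 in the old mice, a difference of 0.04 (SE 0.25, exact permutation p = 0.9). In all 3 ratios the old mouse 2 was the highest of the 6 libraries. The old mouse 5 was the lowest for Camk2a and Camk2g, and the young mouse 11 for Camk2b. Without mouse 2 the differences for Camk2b and Camk2g changed sign, to -0.03 and -0.19.

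**Figure D4:**
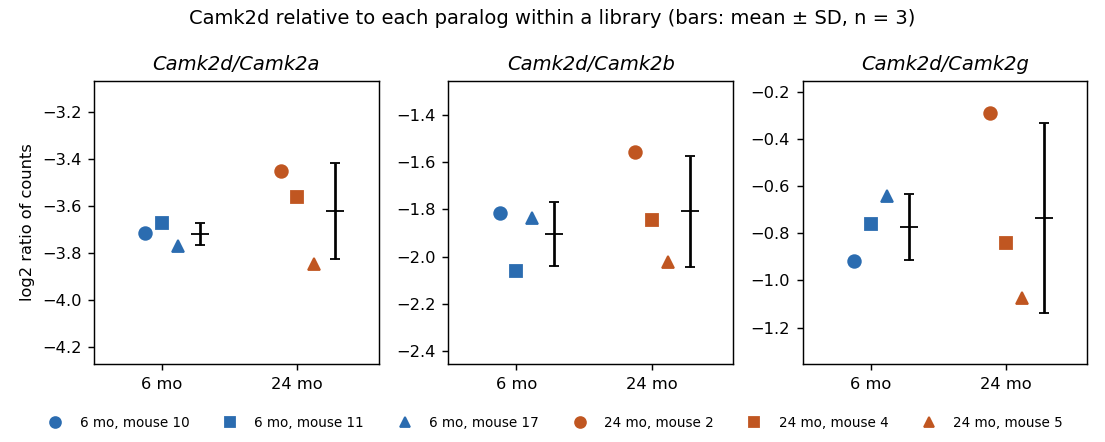
Log2 ratio of Camk2d counts to Camk2a, Camk2b and Camk2g counts in each mouse, with the mean ± SD of 3 mice per age (bars), each panel on its own axis. The age means differ by 0.10, 0.10 and 0.04, which is less than the spread of the 24-month mice in every panel.

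As a part of the summed CaMKII TPM, Camk2d took 1.79%, 1.80% and 1.77% in the young mice and 2.20%, 1.93% and 1.62% in the old. The young mice were almost identical and the old mice lay on both sides of them, with means of 1.79 ± 0.0109% and 1.92 ± 0.289% (SD, n = 3, exact permutation p = 0.7). Counted without division by length the share was 5.09% and 5.45%. Camk2a made up 70.9 ± 1.92% at 6 and 70.5 ± 1.85% at 24 months (exact permutation p = 0.7), Camk2b 16.5 ± 1.67% and 16.4 ± 0.627% (exact permutation p = 1.0), and Camk2g 10.8 ± 1.08% and 11.2 ± 1.52% (exact permutation p = 0.7). Over these 4 shares the adjusted p was 0.933 or higher.

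Of the kinase cascade, Camk4 (ENSMUSG00000038128.7, chromosome 18, 32934931 to 33191228), the nuclear kinase of the group, had the largest log2 fold change over the 6 mice. It measured 97.1, 85.1 and 82.6 CPM in the young mice and 38.7, 48.3 and 79.2 CPM in the old mice 2, 4 and 5. Mice 2 and 4 were far below every young mouse, while mouse 5 lay just under the lowest of them. The means were 88.2 ± 7.75 and 55.4 ± 21.2 CPM (SD, n = 3), a level 37.2% lower at 24 months.

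The log2 fold change of Camk4 was -0.67 (SE 0.22, unadjusted p = 0.0122) and its adjusted p was 0.0845 by edgeR's quasi-likelihood test, 0.0417 by the likelihood ratio test and 0.0663 by DESeq2. It was -1.02 without the 24-month mouse 5 and -0.46 without mouse 2, which is less than for Camk1g (-0.51) and Camk1 (-0.48) in the same fit. In raw counts, with no scaling, Camk4 was at 2704 to 2993 in the young and 1256 to 2696 in the old mice. Every old library held fewer counts in total than every young one, at 29495379 to 32813159 and 33493082 to 36494240. Raw counts therefore cannot show whether the groups stood apart, and the share of all genes apart in raw counts was not computed. In deposited TPM the groups overlapped, since mouse 5 (92.5 TPM) lay above the lowest young mouse (89.3 TPM).

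Among the CaMKI genes, Camk1 (chromosome 6, 113334124 to 113343984), a cytosolic kinase, measured 234, 216 and 235 CPM in the young and 217, 172 and 154 CPM in the old mice. Mouse 2 lay within the young range and the others below it. Its log2 fold change was -0.33 (SE 0.13, edgeR adjusted p = 0.112). Camk1g (chromosome 1, 193346346 to 193370298), a form that is attached to membranes, measured 83.0, 83.8 and 77.9 CPM and then 73.5, 66.2 and 47.1 CPM. The groups did not overlap and mouse 5 was lowest, with a log2 fold change of -0.39 (SE 0.15, edgeR adjusted p = 0.116). Camk1d (chromosome 2, 5293457 to 5714515) measured 168, 158 and 169 CPM and then 130.2, 134 and 152 CPM, with a log2 fold change of -0.25 (SE 0.09, edgeR adjusted p = 0.112) and no overlap.

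Camkk1 and Camkk2 encode the upstream kinases, and Camkk2 also activates AMPK, a sensor of cellular energy. Camkk2 (chromosome 5, 122731170 to 122779409) measured 479, 509 and 481 CPM in the young and 337, 366 and 456 CPM in the old mice. The groups did not overlap and mouse 5 was again nearest to the young mice, with a log2 fold change of -0.34 (SE 0.12, edgeR adjusted p = 0.0901). Camkk1 (chromosome 11, 73019008 to 73042073) varied least within each age, at 278, 269 and 273 CPM and then 223, 236 and 242 CPM. Its log2 fold change was -0.23 (SE 0.08, edgeR adjusted p = 0.104) and its groups were the only ones among the 10 that also stood apart in TPM, at 255 to 261 and 228 to 247. The share of all genes that stood apart in TPM was not computed.

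In CPM 7 of the 10 kinases had old mice wholly below young mice, next to 16.2% of all genes tested and 45.6% of genes of at least 10 CPM, and Camk2d, Camk2g and Camk1 were the ones that overlapped. Of these 7 only Camkk1 also stood apart in deposited TPM, where the others overlapped between ages. The order of the 3 old mice was not the same in every kinase. Camk4, Camk2g, Camkk2, Camk1d, Camkk1 and Camk2b were lowest in mouse 2 and highest in mouse 5. Camk2d, Camk1 and Camk1g ran the other way, highest in mouse 2 and lowest in mouse 5, and Camk2a was lowest in mouse 4 and highest in mouse 5.

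Some other measures of the old libraries followed the same order of mice or its reverse. From mouse 2 through mouse 4 to mouse 5, the summed TPM of 4 oligodendrocyte markers was 421, 1020.0 and 1323, that of 3 inhibitory neuron markers was 203, 269 and 316, and the number of genes with a count was 43561, 42717 and 40208. Sums for oligodendrocyte precursors, microglia, endothelial cells, mural cells and red blood cells also rose in that order, those for excitatory neurons (573.4, 572.6 and 535), striatal neurons and choroid plexus fell, and that for astrocytes (882, 910.4 and 844) did neither. The part of these measures in the kinase differences was not tested. The marker sums of oligodendrocytes and inhibitory neurons overlapped between ages, with 715 to 1159 and 281 to 311 TPM at 6 months.

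Expressed relative to the geometric mean of the 10 kinases in the same library, a scale added after the data had been seen, Camk4 was at -1.53, -1.72 and -1.75 (log2) in the young and -2.47, -2.17 and -1.57 in the old mice. Mouse 5 thus lay inside the young range and the groups overlapped, with a difference of -0.41. Camk2d differed by 0.15 on this scale, also with overlap. Camkk1 was the only member whose groups stood apart, at -0.01, -0.06 and -0.02 in the young and 0.05, 0.12 and 0.04 in the old mice, a difference of 0.10. By construction a member that fell less than the mean of the 10 comes out higher here. In the fit Camkk1 was lower at 24 months (-0.23). The share of all genes that stood apart on this scale was not computed.

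Of 30 genes around these kinases, 25 had a lower fitted level at 24 months, 6 were lower and 0 higher with an unadjusted p under 0.05, and 5 passed 10% FDR, all of them lower. Among all genes tested 13.1% were lower at that p and 8.33% at 10% FDR, and among genes of at least 10 CPM 38.5% and 25.4%. Their median log2 fold change was -0.18, and 0.01 under library totals, close to the median of genes of at least 10 CPM in either case. Old mice lay wholly below young mice in 6 of the 30 and wholly above them in 0, next to 16.2% of all genes and 45.6% of genes of at least 10 CPM wholly below. The 5 calls at 10% FDR became 2 by the likelihood ratio test and 1 by DESeq2.

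All 5 genes for calmodulin and the proteins that buffer it were lower in the fit, and 2 of them had an unadjusted p under 0.05. At that p 13.1% of all genes tested and 38.5% of genes of at least 10 CPM were lower. The median log2 fold change of the 5 was -0.21, next to -0.20 for genes of at least 10 CPM. Calm2, a calmodulin gene, measured 4615, 4003 and 3913 CPM in the young and 3460.0, 3469 and 3290.0 CPM in the old mice, with a log2 fold change of -0.29 (SE 0.09, edgeR adjusted p = 0.0771). The groups did not overlap. Calm3 (-0.12) and neurogranin (Nrgn, -0.21), a calmodulin-binding protein of dendrites, did not pass 10% FDR. Pcp4, another calmodulin-binding protein, had a log2 fold change of -0.58 (SE 0.25, edgeR adjusted p = 0.15) and its groups overlapped.

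The inhibitors of CaMKII did not pass the test. Camk2n1 measured 1009, 711 and 1346 CPM in the young and 1233, 893 and 966 CPM in the old mice, with a log2 fold change of 0.01 (SE 0.21), and Camk2n2 had -0.13. Neither did the related kinases, with Pnck at -0.04, the pseudokinase Camkv at -0.27 and Cask at -0.02.

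Of the phosphatases, Ppm1f, which removes phosphate from CaMKII, measured 119.6, 122 and 114 CPM in the young and 96.6, 97.4 and 96.5 CPM in the old mice. The old mice were nearly identical and all below the young, with a log2 fold change of -0.29 (SE 0.08, edgeR adjusted p = 0.0665). The related phosphatase gene Ppm1e (-0.17) and Ppp3ca (-0.17), the catalytic subunit of calcineurin, did not pass 10% FDR.

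Among 6 synaptic partners and substrates of CaMKII, 2 passed 10% FDR, where 8.33% of all genes and 25.4% of those of at least 10 CPM were lower. These 2 calls became 1 by DESeq2 and with library totals, and there were none without the 6-month mouse 10 or 11 or the 24-month mouse 2 or 4. Few genes of the whole table passed 10% FDR in those fits, in the same order 0 of 32238, 1 of 32003, 176 of 30062 and 0 of 30502. Syn1, which encodes the vesicle protein synapsin I, measured 909.6, 913 and 874 CPM in the young and 617, 589.5 and 696 CPM in the old mice, with a log2 fold change of -0.50 (SE 0.09, edgeR adjusted p = 0.0518) and -0.31 under library totals. Gria1, the AMPA receptor subunit that CaMKII phosphorylates, had a log2 fold change of -0.31 (SE 0.09, edgeR adjusted p = 0.0636), from 583 to 664 CPM at 6 months to 483 to 518 CPM at 24 months. Neither gene overlapped between ages. The NMDA receptor subunit gene Grin2b, which binds CaMKII, was at -0.15, and the scaffold genes Lrrc7 and Dlg4 were at -0.28 and 0.08, none past 10% FDR.

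Downstream of the cascade 1 of 9 genes passed 10% FDR, where 8.33% of all genes tested and 25.4% of those of at least 10 CPM were lower. By the likelihood ratio test and by DESeq2 0 of the 9 passed. The gene called was Mef2c, a transcription factor of neurons. It measured 1364, 1226 and 1198 CPM in the young and 1021, 1049 and 1043 CPM in the old mice, without overlap. Its log2 fold change was -0.28 (SE 0.09, edgeR adjusted p = 0.0727). Creb1 (-0.28), the CREB gene, and Prkaa2 (-0.23), a catalytic subunit of AMPK, had edgeR adjusted p-values of 0.19 and 0.2. The list was gathered with earlier results of these data known.

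The cell type markers of the libraries are given beside these differences, since in bulk cortex fewer cells of a type and less RNA per cell cannot be told apart. Of 4 excitatory neuron markers, 3 were lower with an unadjusted p under 0.05, among them Neurod6 (-0.44) and Tbr1 (-0.40), and Slc17a7 was at -0.06. At that p 13.1% of all genes tested and 38.5% of genes of at least 10 CPM were lower. The median log2 fold change of genes of at least 10 CPM was -0.20. The summed TPM of the markers was 638 to 659 at 6 and 535 to 573 at 24 months, without overlap. This sum, in TPM, was lower at 24 months, as were the fitted levels of the kinases under TMM scaling. In TPM every kinase other than Camkk1 overlapped between ages. Among the old mice the marker sum fell from mouse 2 to mouse 5 (573.4, 572.6 and 535). In that order Camk4, Camk2g, Camkk2, Camk1d, Camkk1 and Camk2b rose, and Camk2d, Camk1 and Camk1g fell. The part of the marker sum in the kinase differences was not tested.

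The 5 astrocyte markers summed to 777 to 833 TPM in the young and 844 to 910 TPM in the old mice, with Gfap at a log2 fold change of 0.69 and the other 4 lower in the fit. Sums overlapped between ages for microglia (273 to 283 and 268 to 320 TPM), oligodendrocyte precursors (16.9 to 18.4 and 13.7 to 20.3 TPM), endothelial cells (40.8 to 59.6 and 43.4 to 60.5 TPM), mural cells (134 to 195 and 112 to 253 TPM), choroid plexus (33.7 to 113 and 46.7 to 112 TPM) and red blood cells (340.3 to 436 and 274 to 383 TPM). Single microglia markers went opposite ways without overlap in CPM. Tmem119 was higher (0.34, edgeR adjusted p = 0.0683) and Csf1r lower (-0.34, edgeR adjusted p = 0.0646), while Cx3cr1 (-0.07) and P2ry12 (-0.08) overlapped. Of 4 red blood cell genes 3 were lower with an unadjusted p under 0.05. At that p 13.1% of all genes tested and 38.5% of genes of at least 10 CPM were lower. Striatal neuron markers, which would show tissue from beneath the cortex, summed to 41.6 to 46.7 and 35.2 to 39.3 TPM, with Drd2 at 0.03 to 0.35 CPM.

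The 5 genes whose log2 CPM ran closest to that of Camk2d over the 6 libraries, out of 18618 genes with a mean of at least 1 TPM, were Ak5 (Pearson r = 0.998), Rps4l (0.992), Mir24-2 (0.992), Ndufb11 (0.992) and 2010204K13Rik (0.992). Ak5 measured 262, 272 and 286 CPM in the young and 267, 221 and 210.2 CPM in the old mice, with mouse 2 among the young as for Camk2d. Mir24-2 reached at most 0.122 CPM and was at 0 in the old mice 4 and 5. With 6 points that share their libraries and scaling, and so many genes searched, these values describe likeness only.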

How the data were processed

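Low-input RNA-seq libraries from 3 mice per age were processed by the authors. Per the methods and the submitters' processing notes, reads were trimmed with Trim Galore 0.6.4, mapped to GRCm38 with STAR 2.7.3a and assigned to exons by featureCounts (Subread 2.0.0), with multi-mapped reads counted as fractions. The deposited gene counts were all whole numbers. The deposited TPM divide by the summed exonic length, which for all 10 kinases equalled the GENCODE vM21 length within 1%.

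Counts were fitted with edgeR 4.0.16 (R 4.3.3) after TMM, over the 32905 genes whose counts summed to 10 or more, by the quasi-likelihood test with Benjamini-Hochberg adjustment over all genes tested. CPM used the TMM factors. Ratios (pseudocount 0.5) and shares were compared by exact two-sided permutation tests over mice (scipy 1.17.1). Alternatives were edgeR's likelihood ratio and exact tests, DESeq2 1.42.0, other scalings and minimums, and each mouse left out. The fits were tested on simulated data.

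The kinases and gene lists were chosen with earlier results of these data known. All 10 kinases are named, with a preset subset of the 30 neighbouring genes, any other of them past 10% FDR, and Cask and Pcp4, named after their values were seen. A few list genes are counted but not reported singly here.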

Additional observations from a re-analysis of the deposited data

How the results depend on the processing

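No paired analysis was possible because the libraries of the 2 ages came from different mice. The count of kinases at 1% FDR was 0 under every alternative run. The count at 10% FDR, 3 as reported, was 1 by the likelihood ratio test, the exact test, DESeq2 and a minimum of 1 count, and 0 with library totals and with edgeR's own expression filter. It ranged from 0 to 7 as single mice were left out, with 7 without the 24-month mouse 5 and 0 without any other mouse. Over all genes tested, those lower at 10% FDR numbered 2742 of 32905 as reported, 323 with library totals and 430 of 20490 with the filter. They numbered 3633 of 31275 without the 24-month mouse 5, 1252 of 32090 without the 6-month mouse 17 and 104 of 30062 without the 24-month mouse 2. Without the 6-month mouse 10 or 11 or the 24-month mouse 4 they numbered 0. The kinase count with an unadjusted p under 0.05, 8 as reported, was 5 by the likelihood ratio and exact tests and 1 with library totals and with the expression filter. It ranged from 0 (without the 24-month mouse 4) to 7 (without mouse 5) as single mice were left out. It was 1 without the 6-month mouse 11, 4 without mouse 10, and 5 without mouse 17 or the 24-month mouse 2. Over all genes tested, those lower at that p numbered 4316 of 32905 as reported, 943 with library totals and 1959 of 20490 with the filter. As single mice were left out they ranged from 1699 of 30502 (without the 24-month mouse 4) to 4673 of 31275 (without mouse 5). For the 30 neighbouring genes the count lower at that p, 6 as reported, was 1 with library totals and ranged from 1 (without the 24-month mouse 4) to 10 (without mouse 5), with 2 without the 6-month mouse 11. Their count at 10% FDR, 5 as reported, ranged from 0 to 9 (without the 24-month mouse 5) as single mice were left out.

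The log2 fold change of Camk2d turned to 0.0179 with library totals. Its log2 ratio difference ranged from 0.0156 to 0.21 against Camk2a, from -0.0308 to 0.20 against Camk2b, and from -0.19 to 0.21 against Camk2g as single mice were left out. The sign changed without the 24-month mouse 2 (-0.0308 for Camk2b, -0.19 for Camk2g) and without the 6-month mouse 10 (-0.04 for Camk2g). The Camk2d share of CaMKII TPM, higher by 0.13 percentage points as reported, differed by -0.0102 without the 24-month mouse 2 and by 0.278 without mouse 5, the ends of its range. Camk2d made up 1.21% of the summed level of the 10 kinases in TPM and 2.85% per kilobase of the longest coding transcript, where the divisor is 5524 in place of 22493 bases. The cause of the other changes was not tested. With 3 mice per age, the permutation tests could not go below p = 0.1.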
